A study of Homo sapiens with 36 samples.

Results

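The 46 genes described here encode the enzymes and transporters of glycolysis, their regulators, the oxygen sensors and HIF1A, and a set of genes known to be induced by low oxygen. They were chosen by symbol, and all 46 were found among the 58302 gene identifiers of the count tables. Expression had been measured by RNA sequencing in 36 libraries of JEKO, MINO and UPN-1, which are 3 established human cell lines of mantle cell lymphoma. Mantle cell lymphoma is a cancer of mature B cells. Each line received either the vehicle DMSO or GS716054, labelled as an inhibitor of lysine demethylase 5 (KDM5), a family of enzymes that take methyl groups off histone H3. Cells were collected 24 h or 72 h after treatment, which gave 12 groups of 3 libraries labelled as biological replicates 1, 2 and 3. All groups were grown in RPMI-1640 medium with fetal bovine serum, and the labels name no low-oxygen group. No dose of GS716054 is given in the sources used here.

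In well-oxygenated cells the prolyl hydroxylases EGLN1 and EGLN3 mark the protein of HIF1A for destruction through VHL. When oxygen falls, HIF1A protein accumulates, binds a short DNA core in the promoters and enhancers of its targets, and raises glucose transporters, glycolytic enzymes, VEGFA and mitophagy genes such as BNIP3. Glycolysis turns glucose into pyruvate, which lactate dehydrogenase reduces to lactate, and proliferating lymphoma cells draw on it even when oxygen is present. The mRNA of HIF1A is not a measure of its protein.

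A library held between 8784815 and 14970876 reads in genes (median 11926903), and mitochondrially encoded genes took 1.52% to 7.03% of them. A count of 0 in a library allowed a level of up to 0.2 to 0.341 CPM, the count relative to the library size after scaling by edgeR's TMM factors, and such limits cover counting error only. All 6 B cell markers stood over 10 CPM in every library of each line, while summed T cell markers reached at most 10 CPM and summed monocyte and macrophage markers at most 5.96 CPM. Summed fibroblast and epithelial markers reached at most 18.7 CPM. Summed plasma cell markers lay between 47 and 260 CPM, and 1 of these 3 markers passed 10 CPM in every library of each line. Of 3 mantle cell lymphoma markers, 3 passed 10 CPM in every library of JEKO and of MINO, and 2 did so in UPN-1. The filter on low counts kept all 46 genes in JEKO and 45 in MINO and in UPN-1, where the collagen prolyl hydroxylase P4HA2 was left out. AK4 in JEKO and PFKFB4 and SLC2A3 in UPN-1 passed it with a mean under 10 counts in at least 1 group of a comparison, so their fold changes there rest on few reads. At 72 h, replicate 2 held the highest level of most of these genes in every line and both arms. At 24 h it did so in both arms of MINO and in DMSO cells of UPN-1. Results are given with and without the 72 h libraries of number 2 where they rest on them.

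Promoter sequences were read from RefSeq (GRCh38.p14) for 38 of the 46 genes, to show how often the core bound by HIF occurs where these genes start. The core was searched as ACGTG or GCGTG on both strands, so that CACGT and CACGC count as well, in the 250 bases before the start, and the palindrome CACGTG gives a match on each strand. At least 1 match occurred in 24 of 38 promoters (63.2%), in 9 of the 11 promoters of hypoxia response targets (81.8%) and in 15172 of all 35116 promoters (43.2%). With ACGTG alone, the counts were 18 of 38 (47.4%) and 6501 of 35116 (18.5%). For each member the first promoter listed was used, while every listed promoter entered the total, with no filter on gene type. These are unlike sets. A match is a description of the sequence, and no binding was measured.

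The promoters of BNIP3, ALDOC, AK4 and BHLHE40, each called over culture time in at least 1 comparison, were chosen as examples with several matches and are printed below from base 250 to base 61 before the start, 5′ to 3′ on the gene's strand, with matches in capitals. None of these windows overlaps an exon of GENCODE v44. The window of BNIP3 lies at chr10:131981984-131982173 (minus strand), that of ALDOC at chr17:28576956-28577145 (minus strand), that of AK4 at chr1:65147302-65147491 (plus strand) and that of BHLHE40 at chr3:4979187-4979376 (plus strand).
BNIP3: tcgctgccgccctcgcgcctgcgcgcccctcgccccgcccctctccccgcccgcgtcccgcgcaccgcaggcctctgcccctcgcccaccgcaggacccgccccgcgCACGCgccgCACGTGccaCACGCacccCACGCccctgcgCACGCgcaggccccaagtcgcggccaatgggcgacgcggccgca
ALDOC: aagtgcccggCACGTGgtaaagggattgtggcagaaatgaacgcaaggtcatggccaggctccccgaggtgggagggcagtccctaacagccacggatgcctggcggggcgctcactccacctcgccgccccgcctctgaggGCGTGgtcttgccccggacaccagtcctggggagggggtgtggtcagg
AK4: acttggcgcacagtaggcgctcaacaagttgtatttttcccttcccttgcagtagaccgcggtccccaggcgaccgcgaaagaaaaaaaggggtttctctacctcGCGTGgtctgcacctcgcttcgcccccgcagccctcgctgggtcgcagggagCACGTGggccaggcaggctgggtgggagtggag
BHLHE40: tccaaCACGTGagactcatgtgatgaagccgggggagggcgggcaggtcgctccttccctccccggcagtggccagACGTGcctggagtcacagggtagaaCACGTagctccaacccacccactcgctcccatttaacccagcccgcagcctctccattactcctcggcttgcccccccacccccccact
BNIP3 held 6 matches in its window, BHLHE40 held 4, and ALDOC and AK4 held 3 each. Of other members with a promoter sequence called higher over culture time in some comparison, HK1, SLC16A3, P4HA2 and PDK1 held 0 matches within 250 bases. PFKFB4, ENO2, PFKL and P4HA1 held 1 each, and INSIG2 held 2. The promoters of PFKM and SLC2A1 also held 0 matches within 250 bases, which says only that these letters are not in that window.

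The basal levels were read in DMSO cells at 24 h, as CPM per kilobase of exon (RPKM), so that genes can be compared with each other. GAPDH, which makes 1,3-bisphosphoglycerate, stood highest of the enzymes named here, at 1840 ± 112 RPKM (JEKO), 1350 ± 58 (MINO) and 1500 ± 73.4 (UPN-1) (SD, n = 3 each). Enolase was almost all ENO1, at 508 ± 27.8 RPKM in JEKO against 6.03 ± 1.09 for the neuronal form ENO2. GAPDH, ENO1, PGK1, LDHA, PGAM1, TPI1, ALDOA and PKM have processed pseudogenes, so the way the authors' counting treated shared reads can move their levels. MIF shares 94.1% of its exonic bases with MIF-AS1 on the opposite strand, and ANKRD37 shares 40.3% with UFSP2. For PFKM and SORD, described below, the largest share with a gene on the opposite strand was 7.12% (SENP1) and 3.43%. Whether strand was used in counting is not given in the sources used here.

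Levels of isoenzymes are given by line, and differences of level between lines were not tested. HK2, the inducible hexokinase, stood above HK1 in all 3 lines, at 32.9 ± 5.88 against 18.1 ± 1.87 RPKM in JEKO and 22.7 ± 2.22 against 7.34 ± 0.21 in UPN-1. In MINO HK2 was at 26 ± 9.36 and HK1 at 16 ± 1.03 RPKM, a gap near the spread of HK2. Phosphofructokinase, the committed step of glycolysis, was mainly the liver form PFKL in MINO (46.8 ± 2.08 RPKM), where the platelet form PFKP (9.88 ± 1.68) and the muscle form PFKM (8.54 ± 0.901) did not differ beyond their spread. In JEKO the forms lay closer, with PFKL at 24.7 ± 0.89, PFKM at 19.9 ± 1.16 and PFKP at 15.5 ± 1.32 RPKM. The glucose transporter SLC2A1 was at 7.93 ± 0.772 RPKM (JEKO), 12.7 ± 1.17 (MINO) and 16.9 ± 1.09 (UPN-1), and SLC2A3 was under 1 RPKM in each line.

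The first question was what GS716054 did to these genes. In MINO, the muscle phosphofructokinase PFKM and the sorbitol dehydrogenase SORD, which turns sorbitol from the polyol branch into fructose, were lower at both times, by more than 1 log2 unit. PFKM (ENSG00000152556, chromosome 12, 48105139 to 48146404, plus strand) stood at 58.8, 69.4 and 57.5 CPM in DMSO at 24 h and at 31.9, 28.1 and 28.6 CPM in treated cells. At 72 h it was at 63.7, 77.0 and 69.6 CPM in DMSO and 23.4, 32.8 and 24.3 CPM in treated cells. The groups did not overlap at either time, and PFKL, the main form in this line, had 414, 401 and 438 CPM in DMSO and 388, 363 and 344 CPM in treated cells at 24 h and was not called. The log2 fold change (log2FC) of PFKM was -1.07 at 24 h (SE 0.151) and -1.38 at 72 h (SE 0.152), with adjusted p values of 0.00572 and 0.000436 by edgeR's quasi-likelihood test, with Benjamini-Hochberg adjustment over all genes tested.

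SORD (ENSG00000140263, chromosome 15, 45023147 to 45077185, plus strand) stood at 98.3, 113 and 90.1 CPM in DMSO cells of MINO at 24 h and at 42.6, 38.2 and 49.1 CPM in treated cells. At 72 h the values were 79.7, 82.5 and 85.1 CPM in DMSO and 40.6, 27.4 and 39.0 CPM after treatment. Every treated library lay below every DMSO library of its time. Its log2FC was -1.21 at each time (SE 0.161), and the edgeR adjusted p values were 0.00501 and 0.00161. Both genes kept their calls at both times when any of the 12 MINO libraries was left out, with edgeR adjusted p values up to 0.0447 for PFKM and 0.0445 for SORD at 24 h.

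**Figure D1:**
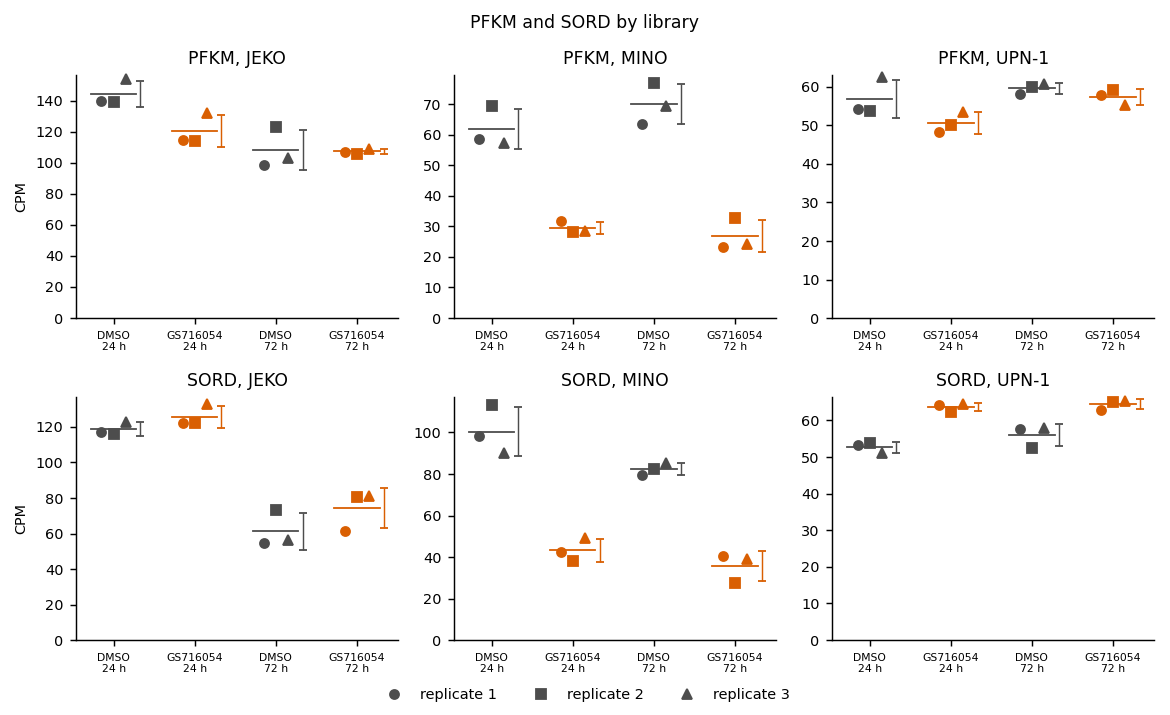
PFKM (top) and SORD (bottom) in CPM on a linear axis from 0, by line, treatment and time; each symbol is 1 library, the horizontal line is the mean and the bar the SD of 3. In MINO the treated libraries lie between 23.4 and 49.1 CPM for both genes, below all DMSO libraries, while in JEKO and UPN-1 no such gap was called.

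These 2 genes made up most of the calls in the main test. In MINO, 3 of 45 genes were lower and 0 higher at 24 h, beside 0.952% lower and 1.44% higher among all 15028 genes tested, and at 72 h 2 were lower and 0 higher, beside 2.05% and 3.51%. The third call at 24 h was SLC16A1, the lactate and pyruvate transporter MCT1 (ENSG00000155380, chromosome 1, 112911847 to 112957593, minus strand). It fell from 171, 150 and 157 CPM to 117, 95.5 and 106 CPM, with a log2FC of -0.59 (SE 0.124, edgeR adjusted p = 0.0309). This call was lost when any 1 of the 6 MINO libraries of 24 h was left out, with adjusted p values up to 0.177. At 72 h SLC16A1 had 127, 125 and 121 CPM in DMSO and 97.6, 88.6 and 110 CPM in treated cells, which did not overlap either, and an edgeR adjusted p of 0.134.

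PFKM and SORD were called by treatment in neither JEKO nor UPN-1. In JEKO, SORD was at 117, 116 and 123 CPM in DMSO and 122, 122 and 133 CPM in treated cells at 24 h, a log2FC of 0.09 (SE 0.147). In UPN-1 it was at 53.2, 53.8 and 51.0 CPM against 64.2, 62.4 and 64.4 CPM, a log2FC of 0.28 (SE 0.0963, edgeR adjusted p = 1), so that its treated libraries lay above its DMSO libraries there. PFKM had log2FCs of -0.26 (SE 0.127) in JEKO and -0.17 (SE 0.103) in UPN-1 at 24 h, and of -0.01 and -0.05 at 72 h. The difference of the treatment effect among the 3 lines, tested in 1 model of all 36 libraries, was called for SORD and PFKM at 24 h (edgeR adjusted p = 0.000129 and 0.0211) and at 72 h (1.43e-05 for each). No other of the 46 genes was called in that test, which called 0.106% of 17980 genes at 24 h and 1.01% at 72 h. Removing replicate 1 or replicate 3 from all groups left 0 of these calls at 24 h, and removing replicate 3 left 0 at 72 h. Without replicate 2, 1 member was called at 24 h and 2 were at 72 h.

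Libraries of the same number and time deviated together, at 72 h in every line and at 24 h in MINO and UPN-1. A fit that kept the replicate number as a block within each time was therefore added after seeing the data. It leaves 4 residual degrees of freedom per line. In MINO it called 10 of 45 genes at 24 h, 6 lower (7.36% of all genes were) and 4 higher (8.43%). The lower genes were SORD, PFKM, SLC16A1, LDHA, HK2 and AK4, and the higher ones were SLC2A3, NDRG1, ALDOC and BNIP3L. HK2 fell from 129, 217 and 116 CPM to 74.5, 134 and 61.4 CPM, a log2FC of -0.80 (SE 0.128, edgeR adjusted p = 0.00118 with the block and 0.525 without it). LDHA, the lactate dehydrogenase subunit induced by HIF, fell from 1240, 1540 and 1050 CPM to 746, 952 and 640 CPM, and every treated library lay below every DMSO library (log2FC -0.71, SE 0.145, adjusted p = 0.00498 with the block and 0.443 without it).

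At 72 h in MINO the same fit called 23 of 45 genes, 21 lower and 2 higher, where 9.80% of all 15028 genes were called lower and 10.4% higher. The median log2FC of the 45 genes was -0.45, against -0.03 for all genes tested. Among 14 hypoxia response targets tested, 8 were lower and 1 higher; of 5 genes for pyruvate and lactate handling, 4 were lower; of 7 upper glycolytic enzymes, 3 were lower; and of 6 lower glycolytic enzymes, 1 was lower. BNIP3, which directs mitochondria to autophagy, was at 61.1, 367 and 59.6 CPM in DMSO and 29.5, 153 and 24.7 CPM in treated cells. VEGFA, the main angiogenic growth factor, had 115, 457 and 123 CPM in DMSO and 55.1, 254 and 12.4 CPM in treated cells. In each numbered pair the treated library was the lower one for both genes, while the groups overlapped because of the high replicates 2.

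With the block, BNIP3 had a log2FC of -1.20 (SE 0.117, edgeR adjusted p = 1.82e-05), and without it one of -1.23 (SE 0.783, adjusted p = 0.39). For VEGFA these were -1.63 (SE 0.321, adjusted p = 0.00336) and -1.11 (SE 1.05, adjusted p = 0.584). The transcription repressor BHLHE40 (-1.32, SE 0.236), the peptide hormone gene ADM (-1.15, SE 0.144) and the mitochondrial adenylate kinase AK4 (-0.96, SE 0.172) were also lower with the block, with adjusted p values of 0.00181, 0.000123 and 0.00181. PDK1, a mitochondrial kinase that inhibits pyruvate dehydrogenase, went from 53.3, 95.5 and 51.3 CPM to 34.5, 75.2 and 21.7 CPM (log2FC -0.72, SE 0.148, adjusted p = 0.00424 with the block and 0.423 without it).

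Not every gene of the hypoxia group went down. NDRG1, a stress gene induced by hypoxia, was higher with the block (log2FC 0.69, SE 0.215, edgeR adjusted p = 0.0356), at 2.66, 30.1 and 3.39 CPM in DMSO and 4.17, 57.2 and 4.30 CPM in treated cells. EGLN3 went from 16.3, 22.5 and 16.6 CPM to 21.6, 30.6 and 22.6 CPM (0.43, SE 0.13, adjusted p = 0.0305 with the block and 0.354 without it). By CPM alone, 28 of the 45 genes were lower in all 3 numbered pairs of MINO at 72 h and 4 were higher in all of them, beside 25.8% and 24.1% of all genes. Those 4 were NDRG1, EGLN3, VHL and the mitophagy receptor BNIP3L. At 24 h, 21 were lower in all pairs and 12 higher, beside 26.5% and 28.1% of all genes. In JEKO the counts were 4 lower and 13 higher of 46 at 24 h (15.9% and 16.9% of all genes) and 8 and 12 at 72 h (18% and 19.1%). In UPN-1 they were 9 lower and 19 higher of 45 at 24 h (19.3% and 19.8%) and 6 and 8 at 72 h (18.5% and 19.7%).

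**Figure D2:**
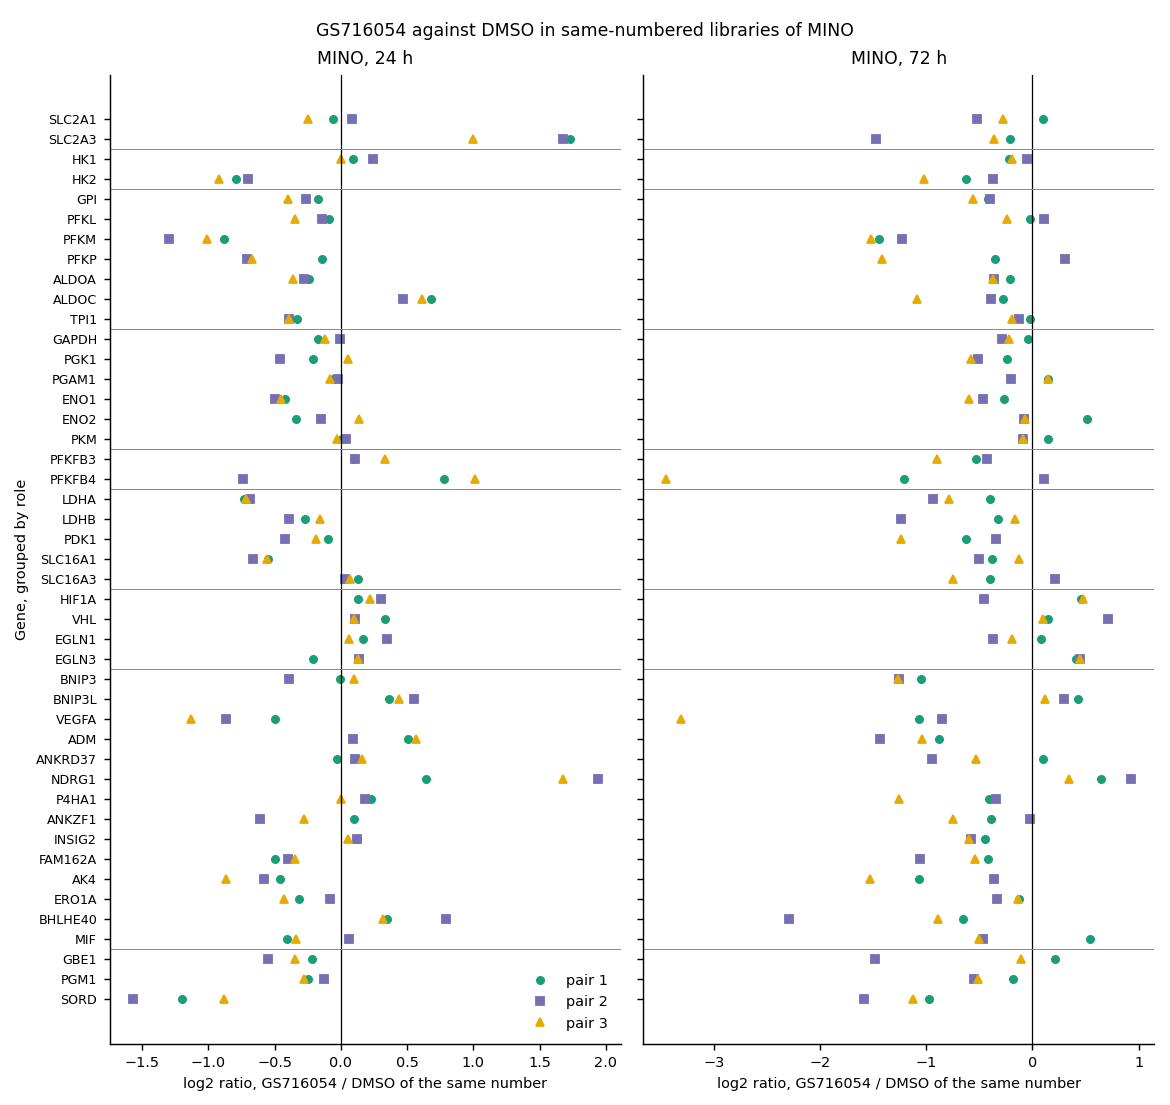
The log2 ratio of CPM in the GS716054 library over the DMSO library of the same number (horizontal axis) for 45 genes grouped by role (vertical axis), in MINO at 24 h (left) and 72 h (right); each symbol is 1 pair. At 72 h, 28 genes have all 3 symbols left of 0 and 4 have all right of 0, against 21 and 12 at 24 h.

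Without both 72 h libraries of number 2, and with no block, the main test in MINO called 12 genes at 24 h, 10 of them lower, beside 19.6% of all genes called in either direction, and 8 lower and 1 higher at 72 h, beside 6.60% and 7.79%. The spread of all MINO libraries feeds each of these tests, so that leaving out 72 h libraries also moves the count at 24 h. The change of the treatment effect between the times was called for 0 of the 46 genes in JEKO, 0 of 45 in MINO and 0 of 45 in UPN-1 by edgeR, beside 0%, 0.0133% and 0% of all genes. DESeq2 called 0 in each line, beside 0.00599%, 0.186% and 0.00656% of all genes. At an unadjusted p under 0.05 the counts of members were 0, 1 and 0, with no share of all genes given here.

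In JEKO and UPN-1 the main test called 0 members at either time. The share of all genes called was 0.0180% at 24 h and 0.300% at 72 h in JEKO, and 0.0262% and 0.334% in UPN-1. DESeq2 also called 0 in these 4 comparisons, beside 0.150% and 1.35% of all genes in JEKO and 0.125% and 1.04% in UPN-1. Unadjusted p values under 0.05 were found for 0 and 2 members in JEKO and for 1 and 1 in UPN-1. No share of all genes is given here for these unadjusted counts. The log2FCs of single members at 72 h lay between -0.38 (ALDOC, SE 0.687) and 0.49 (ENO2, SE 0.176) in JEKO and between -0.49 (BHLHE40, SE 0.422) and 0.68 (ENO2, SE 0.265) in UPN-1. A miss of the threshold does not show that the levels were the same.

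The neuronal enolase ENO2 had the highest fold change in both lines at 72 h. In JEKO it was at 34.7, 43.6 and 39.5 CPM in DMSO and 50.6, 64.0 and 51.2 CPM in treated cells, which did not overlap. In UPN-1 it was at 24.2, 49.7 and 17.5 CPM in DMSO and 52.2, 55.9 and 37.5 CPM in treated cells, higher in each numbered pair. With the block within each time, ENO2 was called in JEKO (log2FC 0.49, SE 0.104, edgeR adjusted p = 0.027) and in UPN-1 (0.76, SE 0.133, adjusted p = 0.00102). The same fit called 1 of 46 members in JEKO at 72 h (3.34% of all genes), 0 at 24 h (0.0899%), and in UPN-1 it called 1 higher and 0 lower of 45 at 24 h (0.918% of all genes were higher) and 2 at 72 h (7.47%). The others were SLC16A1 at 24 h in UPN-1, which was higher (0.26, SE 0.0579, adjusted p = 0.024), and BHLHE40 at 72 h, which was lower (-0.50, SE 0.107, adjusted p = 0.00531).

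In MINO, ENO2 was at 18.2, 69.5 and 21.0 CPM in DMSO and 26.0, 65.9 and 20.0 CPM in treated cells at 72 h (log2FC 0.05, SE 0.500). The difference of the ENO2 effect among the lines was not called at 72 h (edgeR adjusted p = 0.936, and 0.11 with the block). SLC16A1 had a log2FC of 0.26 (SE 0.149) in UPN-1 and 0.25 (SE 0.140) in JEKO at 24 h without the block, and its difference among lines had an edgeR adjusted p of 0.0681 without the block and 0.000213 with it. With the block within each time, the difference among lines was called for 6 of 46 genes at 24 h (5.74% of all genes) and 17 at 72 h (9.78%), and for 2 at each time without it.

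The mRNA of HIF1A was not called by treatment in any line or at either time. HIF1A was at 114, 95.8 and 116 CPM in DMSO and 124, 118 and 135 CPM in treated cells of MINO at 24 h, and its edgeR log2FCs by treatment lay between 0.07 and 0.31 in the 6 comparisons. None was called, with or without the block. EGLN3, itself a HIF target, was not called without the block in any of the 6 comparisons, where its log2FCs lay between -0.21 and 0.44. SLC2A1 had log2FCs from -0.34 (MINO, 72 h, SE 0.462) to 0.22 (JEKO, 24 h, SE 0.276) and was not called in any of them. PGK1, the first ATP-making enzyme of glycolysis, was called only in MINO at 72 h with the block (-0.44, SE 0.140, adjusted p = 0.0386, against 0.452 without it).

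The second question was how these genes changed while the cells stayed in culture with vehicle alone. VEGFA, PFKFB4 and ALDOC were higher at 72 h than at 24 h in JEKO and in UPN-1, and 6 further hypoxia targets were higher in JEKO, while 0 members were called in MINO. In JEKO, VEGFA (ENSG00000112715, chromosome 6, 43770184 to 43786487, plus strand) went from 32.2, 37.9 and 21.6 CPM to 267, 162 and 147 CPM. The groups lay far apart, with a log2FC of 2.65 (SE 0.398, edgeR adjusted p = 0.000923). In UPN-1 VEGFA went from 16.1, 18.7 and 14.3 CPM to 68.2, 119 and 19.4 CPM (2.07, SE 0.482, adjusted p = 0.0475), and there replicate 3 rose least. In bulk RNA, more cells expressing a gene and more RNA per cell cannot be told apart.

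JEKO called 18 of 46 genes over culture time, 13 higher (17.1% of all 16690 genes were) and 5 lower (14.6%). Among the 15 hypoxia response targets 7 were higher and 0 lower, with a median log2FC of 0.72 against 0.05 for all genes. These 7 were VEGFA, AK4 (3.61, SE 1.27), P4HA2 (1.86, SE 0.628), NDRG1 (1.44, SE 0.429), the tRNA hydrolase ANKZF1 (0.84, SE 0.152), BHLHE40 (0.72, SE 0.161) and the sterol sensor INSIG2 (0.66, SE 0.212), with edgeR adjusted p values from 0.000923 to 0.0435. AK4 had 4, 6 and 1 reads in DMSO at 24 h and passed the filter through other libraries, so its fold is uncertain and the count without it is 6 of 14. ERO1A, FAM162A and MIF, also hypoxia targets, had log2FCs of -0.27, -0.43 and -0.50 in JEKO and were not called. PFKFB4, which makes the activator of phosphofructokinase, rose from 3.58, 3.33 and 1.37 CPM to 3.86, 52.2 and 11.4 CPM (3.02, SE 0.909, adjusted p = 0.0226). The brain aldolase ALDOC rose from 14.1, 11.1 and 6.21 CPM to 21.1, 139 and 26.5 CPM (2.57, SE 0.750, adjusted p = 0.0195). Replicate 2 carried most of both rises, and in replicate 1 PFKFB4 stayed within 1 CPM of its 24 h value.

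The lactate exporter SLC16A3 and the transporter SLC2A3 were higher in JEKO at 72 h (log2FCs 1.11 and 1.11, SE 0.272 and 0.331, edgeR adjusted p = 0.00851 and 0.0219), as were PFKL (0.42, SE 0.137) and ENO2 (0.61, SE 0.179). Lower were SORD (-0.95, SE 0.149, adjusted p = 0.00111), PGAM1 (-0.90, SE 0.315), LDHB (-0.59, SE 0.181), SLC16A1 (-0.47, SE 0.140) and PFKM (-0.41, SE 0.128). The calls of VEGFA, SORD, SLC16A3, ANKZF1 and BHLHE40 held when any of the 12 JEKO libraries was left out. Those of AK4, ALDOC, ENO2, INSIG2, NDRG1, P4HA2, PFKFB4, PFKL, SLC16A1 and SLC2A3 were lost without DMSO replicate 2 of 72 h, among others. The calls of LDHB and PFKM were each kept in 7 of the 12 fits that left out 1 library, and that of PGAM1 in 4. Leaving out DMSO replicate 3 of 24 h took the 18 calls to 5, and the share of all genes called in that fit is not given here. Without both 72 h libraries of number 2 the split turned to 8 higher and 13 lower, beside 16.6% and 11.5% of all genes.

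Several of the main glycolytic enzymes of JEKO were low at 72 h except in replicate 2. LDHA went from 1650, 1810 and 1690 CPM to 526, 1660 and 813 CPM. ENO1 went from 2500, 2650 and 2790 CPM to 1080, 2750 and 1390 CPM, and PGK1 from 796, 817 and 744 CPM to 314, 770 and 488 CPM. In replicates 1 and 3 all 3 enzymes lay below every 24 h library, and in replicate 2 they lay within the 24 h range. With all libraries none of the 3 was called, with log2FCs of -0.78 (SE 0.384), -0.61 (SE 0.359) and -0.58 (SE 0.310). The treated JEKO cells showed the same order of replicates, with LDHA at 588, 1680 and 1010 CPM at 72 h. Replicate 1, in which LDHA was lowest, held the highest VEGFA of the DMSO libraries (267 CPM).

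UPN-1 called 3 of 45 genes over culture time in DMSO, all higher: PFKFB4 (log2FC 4.60, SE 1.03, edgeR adjusted p = 0.0444), ALDOC (3.34, SE 0.732, adjusted p = 0.043) and VEGFA. The share of all genes called was 1.35% higher and 0.118% lower. The median log2FC was 1.07 for the 14 hypoxia targets tested, 0.47 for the 45 genes and 0.02 for all genes. PFKFB4 went from 1.62, 1.90 and 1.51 CPM to 26.6, 90.9 and 4.15 CPM, and ALDOC from 5.82, 7.16 and 5.31 CPM to 39.2, 133 and 13.0 CPM. Every 72 h library lay above every 24 h library for both genes. BNIP3 (ENSG00000176171, chromosome 10, 131967684 to 131981967, minus strand) went from 67.9, 79.9 and 71.5 CPM to 172, 458 and 97.1 CPM and was not called (1.73, SE 0.461, adjusted p = 0.0616). All 3 calls were lost when any of the 6 UPN-1 libraries of 24 h was left out, when DMSO replicate 1 or 2 of 72 h was, and when GS716054 replicate 1 of 72 h was. Without DMSO replicate 3 of 72 h the count was 25, and the share of all genes called in that fit is not given here. That library had the lowest median of hypoxia targets of the 3 DMSO libraries of that time. Without both 72 h libraries of number 2 the count was 0, beside 0.0131% of all genes.

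MINO called 0 of 45 genes over culture time in DMSO by edgeR, where 0.0932% of all genes were called. DESeq2 called 1, beside 6.53% of all genes. An unadjusted p under 0.05 was found for 18 of the 45, and the share of all genes for it is not given here. The median log2FC of its 14 hypoxia targets tested was 1.37, against 0.04 for all genes. ALDOC went from 15, 30.6 and 11.1 CPM to 45.4, 327 and 51.9 CPM, and every 72 h library lay above every 24 h library (log2FC 2.89, SE 0.928, adjusted p = 0.123). VEGFA, from 11.8, 80.7 and 10.9 CPM to 115, 457 and 123 CPM, behaved alike (2.74, SE 1.12, adjusted p = 0.169). SLC2A3 was at 3.16, 6.48 and 4.46 CPM at 24 h and at 11.6, 439 and 10.2 CPM at 72 h, so that replicate 2 stood far above the others. Without both 72 h libraries of number 2, 5 genes were called higher and 3 lower, beside 6.81% and 6.50% of all genes.

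**Figure D3:**
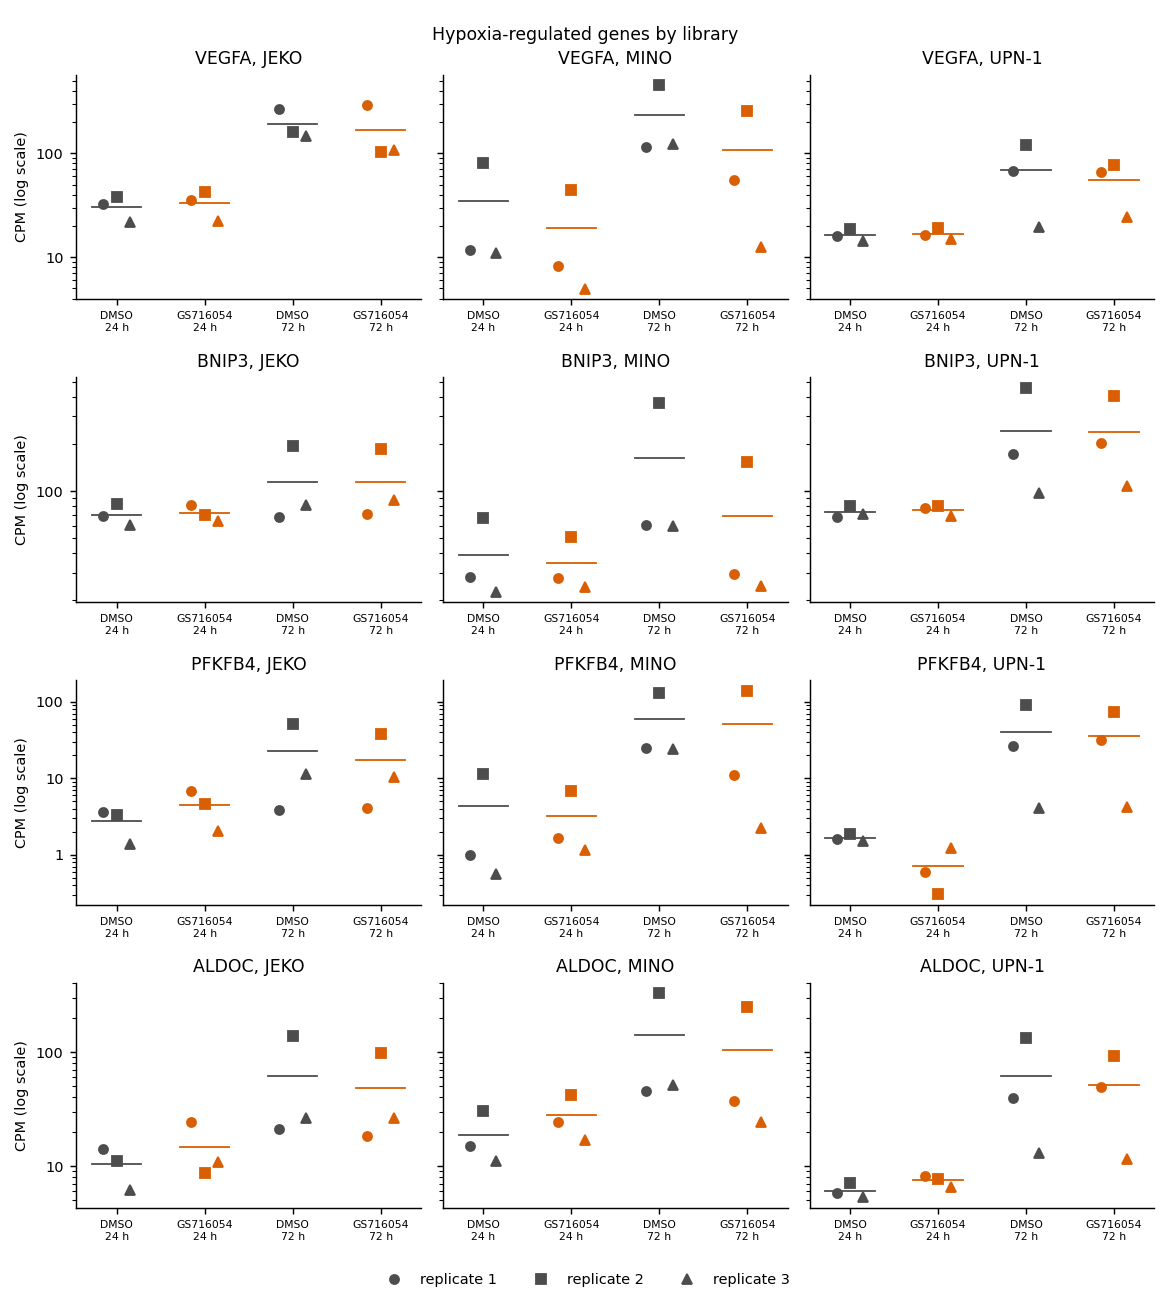
VEGFA, BNIP3, PFKFB4 and ALDOC in CPM on a log axis shared by the 3 lines, by treatment and time; each symbol is 1 library and the line is the mean of 3. The 72 h libraries reach higher than the 24 h libraries in each line and both arms, and replicate 2 is the highest 72 h library in most panels, except for VEGFA in JEKO, where replicate 1 is (267 CPM in DMSO and 292 CPM after treatment).

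The treated cells were compared between 72 h and 24 h as well, a comparison added after seeing the data. It contrasts no library of the DMSO time comparison, but both take their spread from all 12 libraries of a line. Same-numbered DMSO and treated libraries also deviated together at 72 h, with correlations from 0.29 to 0.59. The comparison is therefore no independent repeat. In JEKO 4 genes were higher (15.1% of all genes) and 2 lower (11.9%): VEGFA (log2FC 2.32, SE 0.393, edgeR adjusted p = 0.0028), ANKZF1, ENO2 and BHLHE40 rose, and SORD and SLC16A1 fell. In UPN-1 13 were higher (10.5%) and 1 lower (5.74%). PFKFB4 had a log2FC of 5.59 (SE 1.16, adjusted p = 0.0111) there, a fold that rests on 6, 3 and 15 reads at 24 h and is therefore uncertain. ALDOC had a log2FC of 2.78 (SE 0.714), SLC16A3 2.54 (SE 0.621), AK4 1.92 (SE 0.593), VEGFA 1.74 (SE 0.480) and BNIP3 1.65 (SE 0.460). SLC16A1 was the gene that fell in UPN-1 (-0.51, SE 0.149, adjusted p = 0.0352). In MINO edgeR called 0 of 45 (1.18% of all genes), and DESeq2 called 2 (6.39%). An unadjusted p under 0.05 was found for 9 members, with no share of all genes given here. The UPN-1 count of 14 ranged from 0 without GS716054 replicate 1 of 24 h to 26 without GS716054 replicate 3 of 72 h. The shares of all genes called in those fits are not given here.

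**Figure D4:**
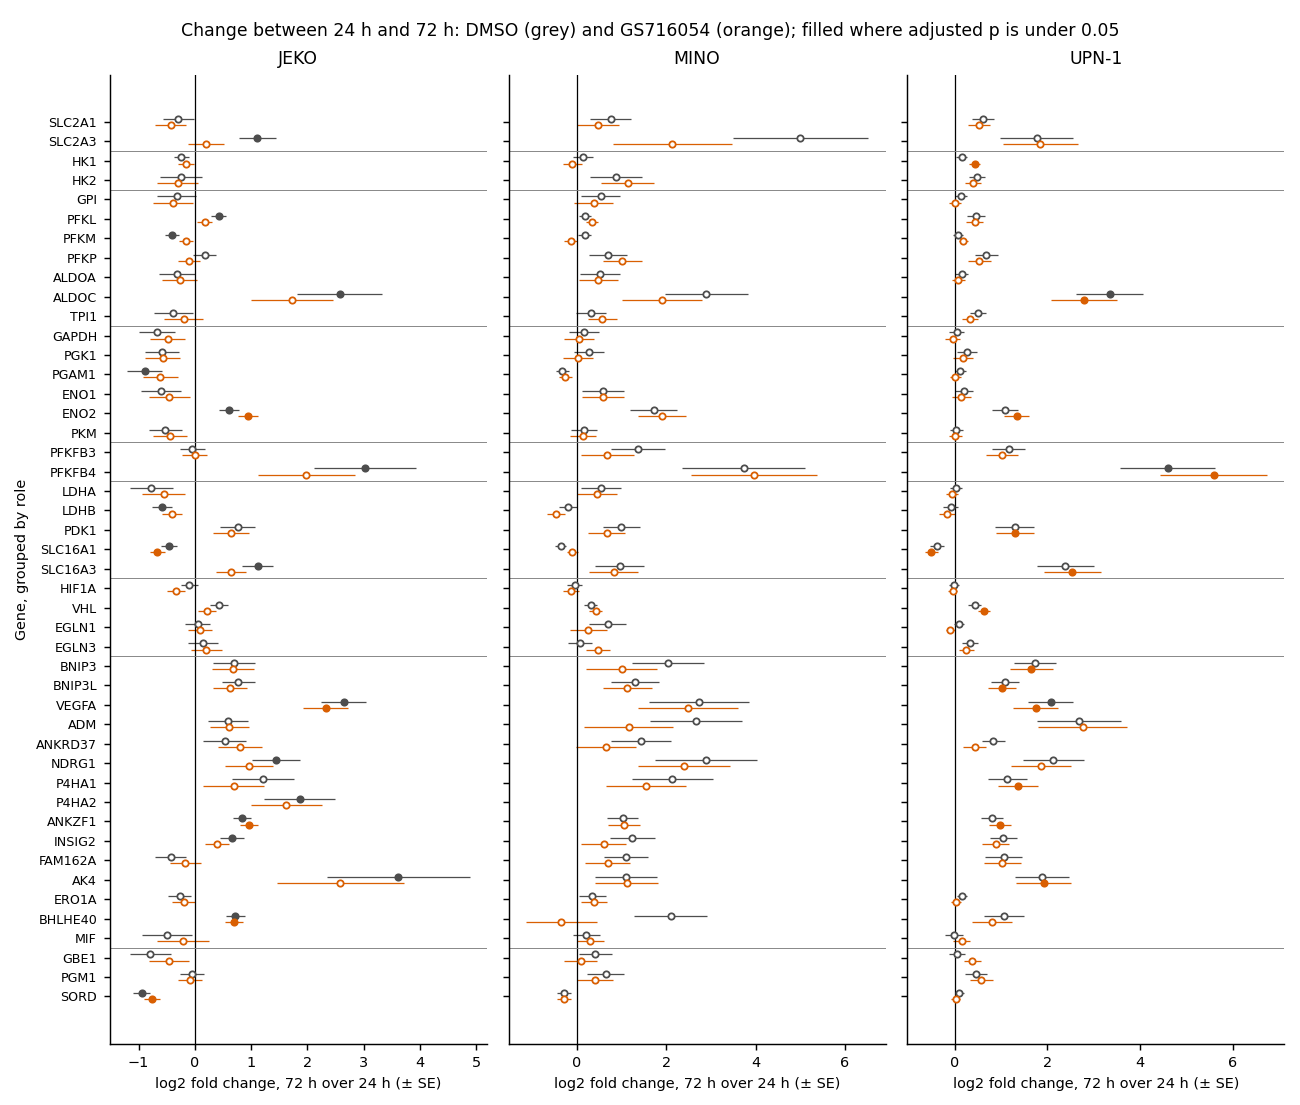
Log2 fold change of 72 h over 24 h with its SE (horizontal axis) for each gene (vertical axis, grouped by role) in DMSO cells (grey) and GS716054 cells (orange) of each line, with filled symbols where the edgeR adjusted p is under 0.05. VEGFA is filled in both arms of JEKO and UPN-1 and in neither arm of MINO.

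The excess of replicate 2 at 72 h can be counted over all members. In DMSO cells at 72 h, replicate 2 was the highest of the 3 libraries for 42 of 46 genes in JEKO, 42 of 45 in MINO and 34 of 45 in UPN-1, while it was the highest for 31.8%, 41.7% and 36.6% of all genes tested. In treated cells at 72 h the counts were 39 of 46, 39 of 45 and 32 of 45, beside 33%, 40.5% and 34.2%. The excess was not limited to 72 h. At 24 h in DMSO the counts were 23 of 46, 34 of 45 and 24 of 45, beside 30.9%, 35.3% and 30.0%. In treated cells at 24 h they were 14 of 46, 34 of 45 and 12 of 45, beside 38.4%, 35.4% and 31.4%. The median log2 ratio of the 15 hypoxia targets to the DMSO 24 h mean of the line was 0.09, 1.16 and 0.51 in replicates 1, 2 and 3 of JEKO DMSO at 72 h. It was 0.44, 2.16 and 0.38 in MINO and 0.88, 1.80 and 0.13 in UPN-1. In treated cells at 72 h it was 0.24, 1.10 and 0.36 in JEKO, 0.12, 1.57 and -0.29 in MINO and 0.88, 1.87 and 0.12 in UPN-1. The labels do not say what replicates of a number share, and its part in these results was not tested.

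**Figure D5:**
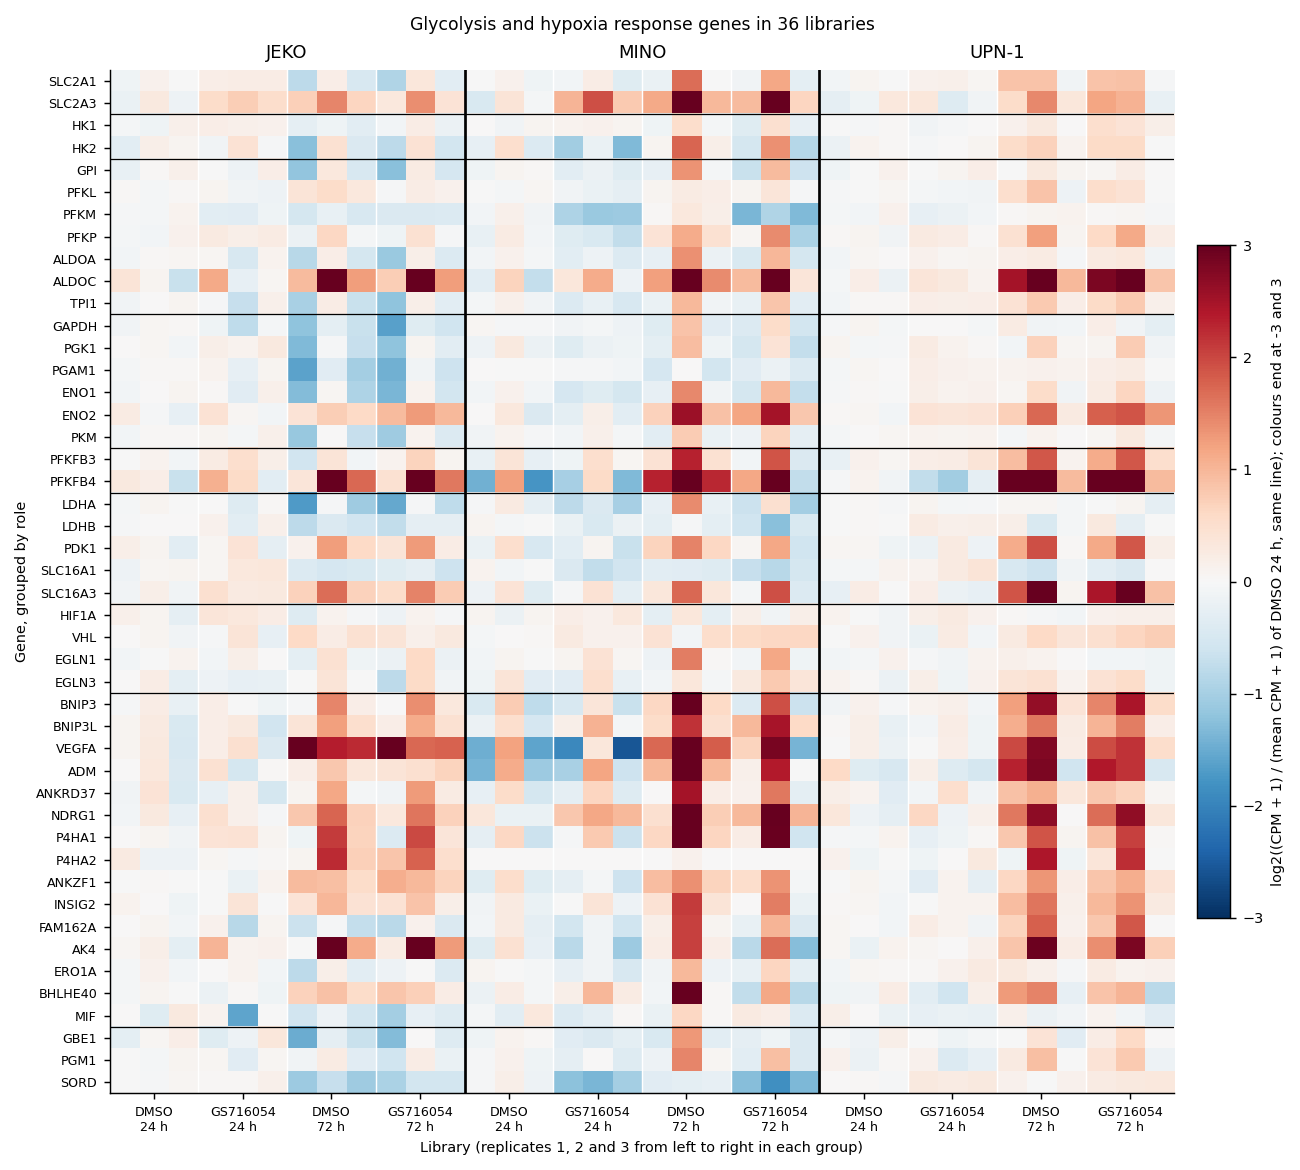
Log2 ratio of CPM + 1 in each library to the mean CPM + 1 of the DMSO 24 h group of the same line (colour, ending at -3 and 3), with 46 genes in rows grouped by role and 36 libraries in columns. The 72 h columns of replicate 2 are the reddest for hypoxia targets in each line, and the blue cells of PFKM and SORD fill the treated groups of MINO.

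The change over culture time differed among the lines for 1 of 46 genes, SORD (edgeR adjusted p = 0.0317, 0.167% of 17980 genes called). In DMSO cells of JEKO it fell from 117, 116 and 123 CPM to 54.7, 73.4 and 56.1 CPM. In UPN-1 it was at 53.2, 53.8 and 51.0 CPM and then at 57.7, 52.5 and 57.9 CPM, with a log2FC of 0.09 (SE 0.0962), and in MINO the log2FC was -0.29 (SE 0.158). That call was lost when replicate 1 or replicate 3 was removed from all groups. The DMSO time comparison and the treatment comparisons of a line share their DMSO libraries, so their values stand side by side here and were not correlated.

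A list of 83 further genes of these pathways held 65 that were tested in each line. In MINO, PDK2, a pyruvate dehydrogenase kinase, was higher after treatment at 24 h (log2FC 0.61, SE 0.133, edgeR adjusted p = 0.0335) and at 72 h (0.74, SE 0.133, adjusted p = 0.0075). No other of the 65 was called higher, beside 1.44% of all genes at 24 h and 3.51% at 72 h. At 72 h 4 of the 65 were lower, beside 2.05% of all genes. They included the liver glycogen phosphorylase PYGL (-3.06, SE 0.601, adjusted p = 0.0111), the fructose transporter SLC2A5 (-2.78, SE 0.697, adjusted p = 0.0357) and the pyruvate dehydrogenase phosphatase PDP2 (-0.91, SE 0.178, adjusted p = 0.0108). By edgeR 0 of the 65 were called by treatment in JEKO or UPN-1, with 1 and 5 at an unadjusted p under 0.05 at 24 h and 72 h in JEKO and 2 and 0 in UPN-1. Shares of all genes at an unadjusted p are not given here.

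Over culture time in DMSO, 25 of these 65 were called in JEKO, 8 higher and 17 lower, beside 17.1% and 14.6% of all genes. In UPN-1 1 was called, and it was higher, beside 1.35% of all genes. Of 11 genes of pyruvate dehydrogenase and mitochondrial pyruvate entry 5 fell (DLAT, DLD, PDHX, PDHA1 and PDHB, named after their values were seen), and of 7 pentose phosphate genes 4 fell. The hypoxia-induced genes PPFIA4 (3.93, SE 0.989, edgeR adjusted p = 0.00985), STC2 (2.58, SE 0.359, adjusted p = 0.000766) and the mTOR inhibitor DDIT4 (1.80, SE 0.300, adjusted p = 0.00139) had the largest log2FCs in JEKO. DDIT4 was the gene called in UPN-1 (1.60, SE 0.321, adjusted p = 0.0355). In MINO 0 of 65 were called by edgeR, beside 0.0932% of all genes. An unadjusted p under 0.05 was found for 26 of the 65, with no share of all genes given here.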

How the data were processed

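Per the labels' protocols, a Qiagen mRNA kit was used for RNA sequencing of 36 libraries. The authors deposited raw read counts per Ensembl gene for each library, and HISAT2 2.2.1, HTSeq 0.13.5 and GRCh38 are named in the submitters' processing notes. The annotation release, strand setting and treatment of multiply mapped reads are not given in the sources used here. The 5 HTSeq summary lines, which held 55.1% to 59.3% of reads, were left out. Symbols and positions came from GENCODE v44 (GRCh38), which held 57532 of the 58302 identifiers.

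Each line was fitted alone (12 libraries, 8 residual degrees of freedom) with edgeR 4.0.16 in R 4.3.3: TMM scaling, filterByExpr with a minimum count of 10, the quasi-likelihood test, and Benjamini-Hochberg adjustment over all genes tested, with calls at an adjusted p under 0.05. Differences among lines used 1 fit of 36 libraries. DESeq2 1.42.0 was an alternative. CPM and RPKM were computed from the counts.

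The labels call the replicates biological but do not say what a number shares. Same-numbered libraries of a time correlated in their deviations from the group means by more than 0.1 in every pair at 72 h, and at 24 h in MINO and UPN-1 but not JEKO, where the correlations were 0.13, 0.06 and 0.21. A block within each time, the fit without both 72 h libraries of number 2, and the time comparison in treated cells were added after seeing the data.

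The members and lists were chosen with earlier results of these data known. Named genes were 9 fixed members, the called members of each comparison (the 10 largest changes beyond 10) and up to 3 called genes outside the members. Other members, including those named from the blocked fits and the remaining calls in JEKO over time, were chosen after their values were seen.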

Additional observations from a re-analysis of the deposited data

Results flagged for a closer look

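The treatment effect on SORD differed among JEKO, MINO and UPN-1, with an edgeR adjusted p of 0.000129 at 24 h and 1.43e-05 at 72 h. That on PFKM differed with an edgeR adjusted p of 0.0211 at 24 h and 1.43e-05 at 72 h. Removing replicate 3 from all groups left 0 of these calls at either time. Both genes were lower in all treated libraries of MINO than in its DMSO libraries at each time. The change of SORD over culture time in DMSO also differed among the lines (adjusted p = 0.0317), and was largest in JEKO of the 3 lines.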

How the results depend on the processing

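Values are counts of members called, with the share of all genes called by the same fit in parentheses. With the replicate number as a block within each time, treatment gave 1 in JEKO at 72 h (3.34%), 10 (15.8%) and 23 (20.2%) in MINO, and 1 and 2 in UPN-1; the difference among lines gave 6 and 17 (5.74% and 9.78%). A replicate block across both times, where not every pair of libraries correlated by over 0.1, gave 6 for treatment in MINO at 72 h (10.2%), 14 in MINO (12.1%) and 23 in UPN-1 (18.3%) over time in DMSO, and 11 (32.8%), 7 (7.02%) and 22 (31.7%) in treated JEKO, MINO and UPN-1. With no low-count filter, treatment gave 7 (3.85%) and 11 (5.46%) in MINO and 1 in UPN-1 at 72 h (0.805%); DMSO time gave 24 in MINO (6.32%) and 26 in UPN-1 (6.43%); treated cells gave 19 (16.3%), 17 (4.5%) and 24 (12.3%); the change of effect in MINO gave 2 (0.315%), and the differences among lines 4, 9 and 18 (0.764%, 1.67% and 1.88%). DESeq2 gave 1 and 9 over time in DMSO of MINO and UPN-1 (6.53% and 6.73%) and 2 in treated MINO (6.39%). A fit of all 36 libraries gave 10 (32.4%), 4 (3.52%) and 1 (1.01%) over time in DMSO of JEKO, MINO and UPN-1, and 2 (4.11%) and 6 (9.78%) in treated MINO and UPN-1. With only the libraries compared, MINO at 24 h gave 10 (18.2%) and UPN-1 over time in DMSO 0 (0.00699%). Without both 72 h libraries of number 2, MINO gave 12 (19.6%) and 9 (14.4%) for treatment and 8 (13.3%) over time in DMSO, UPN-1 gave 1 for treatment at 72 h (0.275%) and 0 over time in DMSO (0.0131%), treated cells gave 14 (25.8%), 5 (5.66%) and 9 (10.3%), and the DMSO change among lines 5 (3.39%). The cause of these shifts was not tested.

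Leaving out 1 library gave 5 to 21 (JEKO), 0 to 6 (MINO) and 0 to 25 (UPN-1) over time in DMSO, and 6 to 10, 0 to 2 and 0 to 26 in treated cells. It gave 2 to 3 at 24 h and 2 to 4 at 72 h for treatment in MINO and 0 to 1 in UPN-1 at 72 h. Leaving out a replicate number gave 0 to 1 and 0 to 2 for the treatment differences among lines and 0 to 2 for the DMSO change. The shares of all genes called in these fits are not given here, so the counts show no shift particular to the members. Of 922 alternative values for named genes that were called, 713 stayed called, 209 did not and 0 reversed. Of 2106 for named genes that were not called, 103 became called and 130 changed sign. Depth limits AK4 in JEKO and PFKFB4 and SLC2A3 in UPN-1.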
